A study of Mus musculus with 8 samples.

Results

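The mouse genome encodes a family of nuclear receptors, of which 34 genes outside the retinoid receptors were described here, out of 23420 genes in the deposited table. They were picked by gene symbol, and all 34 symbols were found. RNA was measured in 2 regions of the head mesenchyme of wild type C57BL/6 embryos at E12.5, the early migrating mesenchyme (EMM) and the supraorbital mesenchyme (SOM) above the eye. Surface ectoderm and brain had been removed with dispase before the mesenchyme was frozen. Each region had 4 libraries, and 4 to 5 embryos were pooled for each, so that values average over embryos and cell types. No source used here says whether both regions came from the same embryos or pools from separate dissections, and p-values measure the spread between these pools only.

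Nuclear receptors are transcription factors with a zinc finger DNA-binding domain and a ligand-binding domain. Steroid receptors wait for their hormone on chaperones and bind DNA as homodimers, whereas the receptors for oxysterols, fatty acids and vitamin D pair with a retinoid X receptor (RXR). Others, such as the COUP-TF and estrogen-related receptors, are orphans that act without a classical hormone. In the embryonic head, COUP-TFs are known from neural crest, vessels and forebrain, and glucocorticoid receptor signalling is known for its effects on bone and connective tissue.

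Depth and tissue identity come first. The EMM libraries held 12.7 to 22.4 M reads each, and the SOM libraries held 16.8 to 33.7 M. All 14 cranial mesenchyme markers passed the filter described next. Their summed level differed between regions, at 901750 to 1038900 normalized counts in EMM and 385500 to 442300 in SOM. Collagen genes made up most of this sum. Col1a1, Col1a2 and Col3a1 had means of 366350, 293150 and 221970 in EMM and 107730, 92912 and 97946 in SOM. The sum therefore chiefly reflects these collagen genes and not the list as a whole. In the test described next, 7 of the 14 markers were higher in EMM and 6 in SOM, and 1 was not called. Immediate early genes, which dissection can induce, differed between libraries of a group. Over 16 such genes outside the receptor family the sum ran from 27778 to 44388 in EMM and from 15812 in SOM replicate 1 to 52725 in SOM replicate 4. Markers of other cells also differed between the regions. Of 12 tested meninges markers 11 were higher in EMM, with sums of 30538 to 33569 against 9021 to 10152 in SOM. Of 10 pericyte markers 9 were higher in EMM, with sums of 64816 to 72524 against 14504 to 17148. Of 8 tested osteoblast markers 7 were higher in SOM, with sums of 4664 to 6092 against 2164 to 2606 in EMM and Bglap2 at 0 in all libraries. Surface ectoderm markers were still read after the dispase step. Of 10 tested, 3 were higher in EMM and 7 did not pass. Krt5 varied between libraries, at 3.07, 192, 55.4 and 8.08 in EMM replicates 1 to 4. In SOM replicates 1 to 4 it stood at 55.4, 46.2, 43.4 and 140. The part of these cells in the receptor differences below was not tested.

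Of the 34 receptor genes, 22 passed the filter of at least 10 normalized counts in at least 4 libraries, and 12 did not. With limma and Benjamini-Hochberg adjustment over all 14249 genes tested, 9 of the 22 were higher in EMM, 4 were higher in SOM and 9 did not pass. Across all genes tested, 72.1% were called, 36.1% higher in EMM and 36.0% higher in SOM, so that the 59.1% of tested receptor genes called is below the background. The groups did not overlap in 12 of the 22, against a background of 66.1%. Calls of at least 2-fold numbered 6, all but 1 toward EMM, against a background of 16.2%. The 1 toward SOM was Esrrb, which passed the filter through its SOM libraries. The median log2 difference, SOM minus EMM, was -0.12 for the tested receptor genes and 0.01 for all genes. In these bulk samples fewer cells of a type and less RNA per cell cannot be told apart.

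**Figure D1:**
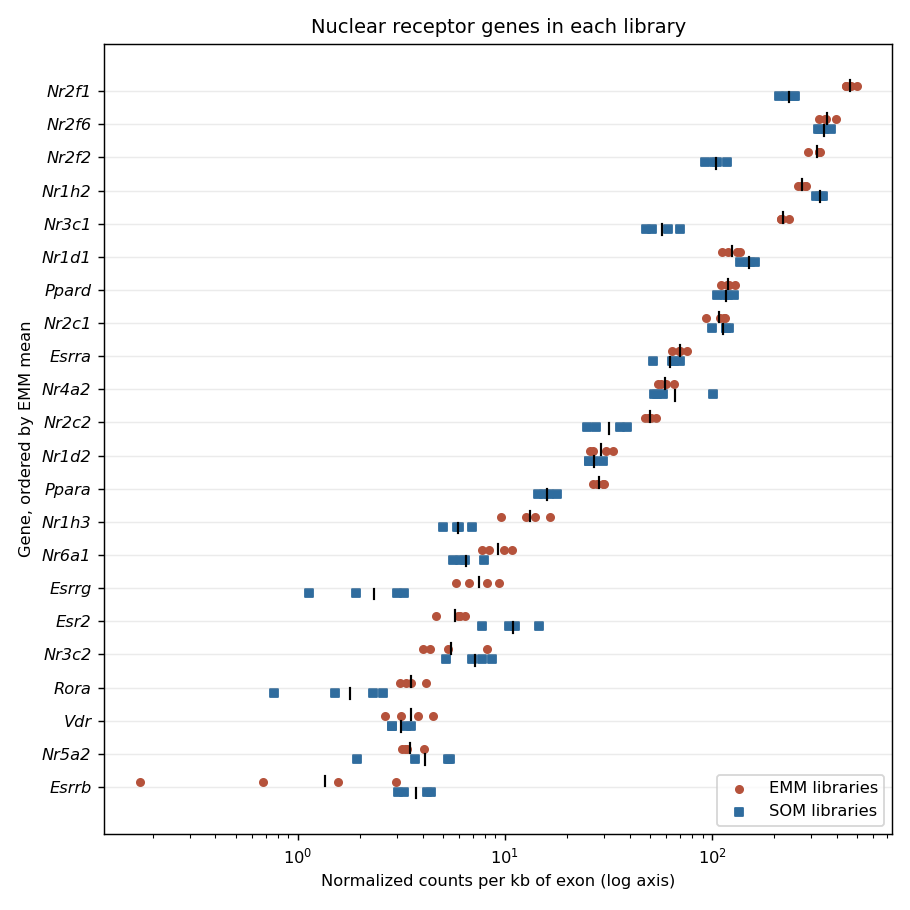
Normalized counts per kb of exon on a log axis for the 22 tested receptor genes, with 1 point per library (circles EMM, squares SOM, 4 each) and a black tick at each group mean. Nr2f1 was highest in EMM at 463 per kb, and Nr2f6 was highest in SOM at 346 per kb.

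A few genes held most of the receptor message. On the scale of normalized counts per kb of merged exon, 8 genes (Nr2f1, Nr2f6, Nr2f2, Nr1h2, Nr3c1, Nr1d1, Ppard and Nr2c1) made up 86.3% to 87.5% of the summed level of all 34 in EMM and 83.3% to 86.1% in SOM. The order differed between regions. In EMM the level per kb was highest for Nr2f1, at 463 ± 27.2 (SD, n = 4), followed by Nr2f6 at 359 ± 28.5 and Nr2f2 at 321 ± 19.6. In SOM it was highest for Nr2f6, at 346 ± 22.7, with Nr1h2 at 332 ± 11.3, a gap smaller than the spread of Nr2f6. The share held by Nr2f1 and Nr2f2 together was 34.2% ± 0.88 in EMM and 19.8% ± 1.44 in SOM. The share of Nr3c1 was 9.65% ± 0.56 and 3.35% ± 0.54. Merged exons overstate the length of any 1 transcript, so this order holds for that length only.

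The COUP-TF genes Nr2f1 and Nr2f2 were both higher in EMM, and Nr2f6, the third member of the subfamily, was at nearly the same level in both regions. Nr2f2 encodes COUP-TFII, a factor of veins, lymphatics and mesenchyme, and lies on chromosome 7 from 70351944 to 70366735. It stood at 2842, 2874, 2849 and 2518 normalized counts in EMM replicates 1 to 4. In SOM replicates 1 to 4 it stood at 912, 882, 797 and 1023. The lowest EMM library lay far above the highest SOM library, the mean was 3.07-fold higher in EMM, and the log2 difference was -1.62 (SE 0.07, limma adjusted p = 1.39e-11). Nr2f1 encodes COUP-TFI, best known for patterning the cortex and the eye, and lies on chromosome 13 from 78188973 to 78199757. It stood at 2255, 2384, 2543 and 2248 in EMM and at 1279, 1157, 1072 and 1266 in SOM. The groups lay apart again, with a log2 difference of -0.98 (SE 0.06, limma adjusted p = 1.03e-09). Of 12 endothelial markers, 7 were higher in EMM and 3 in SOM, with a median of -0.29 and none at 0. Their summed level was 19032 to 24797 in EMM and 14737 to 17552 in SOM, and their part in the Nr2f2 difference was not tested.

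The difference was larger for Nr2f2 than for Nr2f1. The log2 ratio of Nr2f1 to Nr2f2, each as normalized count + 1, was -0.23 ± 0.08 in EMM and 0.40 ± 0.08 in SOM, so that Nr2f2 led in counts in EMM and Nr2f1 in SOM (two-sided exact permutation p = 0.0286, the smallest that 4 against 4 libraries can give). In all, 10 gene pairs were compared in this way, chosen after their values were seen, and the Benjamini-Hochberg adjusted p of this one was 0.0317. Nr2f6, an orphan receptor known from immune cells, stood at 1070 ± 84.9 in EMM and 1031 ± 67.8 in SOM. Its log2 difference of -0.05 had a 95% interval from -0.19 to 0.09, which leaves no room for a 2-fold change. Of its 2983 exonic bases, 1622 overlap the gene Ocel1 on the other strand, and since no source used here says whether counting used strand, reads there cannot be assigned. Ocel1 itself had 43.1 ± 13.1 normalized counts in EMM. Nr2f2 and Nr2f1 overlap long non-coding genes on the other strand, B130024G19Rik and A830082K12Rik, over 643 and 123 bases. B130024G19Rik was at 63.5 ± 8.77 in EMM and A830082K12Rik at 109 ± 7.22, and both were also called higher in EMM.

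**Figure D2:**
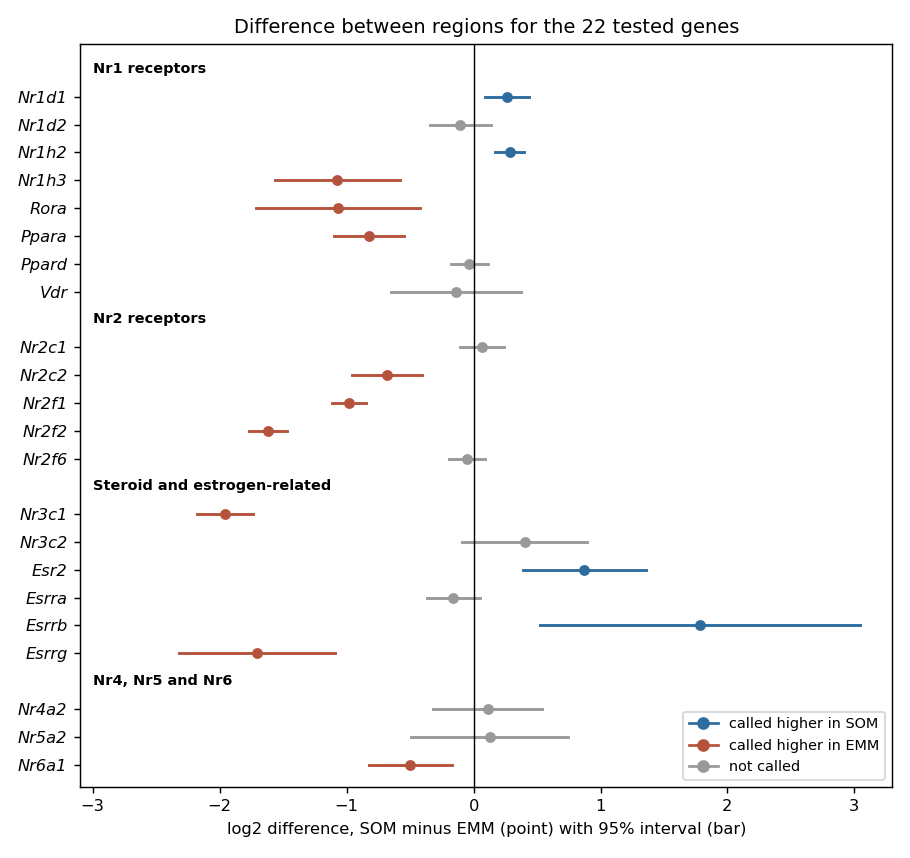
The log2 difference between regions (SOM minus EMM, points) with its 95% interval (bars) for the 22 tested receptor genes, in 4 groups of the family and coloured by the limma call. Nr3c1 and Esrrg lie farthest toward EMM, at -1.96 and -1.71, and Esrrb lies farthest toward SOM, at 1.78 with a wide interval.

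Among the steroid receptors, Nr3c1 had the largest fitted difference toward EMM of all 22 tested genes. It encodes the glucocorticoid receptor and lies on chromosome 18 from 39410545 to 39519421. It stood at 1816, 1647, 1672 and 1661 normalized counts in EMM replicates 1 to 4. In SOM it stood at 368, 470, 393 and 536. No SOM library came near the EMM range, and the mean was 3.85-fold higher in EMM (log2 difference -1.96, SE 0.10, limma adjusted p = 3.30e-09).

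Its closest relative did not follow. Nr3c2 encodes the mineralocorticoid receptor, which binds the same natural glucocorticoids. It was low, at 53.1, 34.3, 26.1 and 28.3 in EMM and 50.4, 33.6, 44.7 and 56.1 in SOM, with overlapping groups. The log2 difference was 0.40 with a 95% interval from -0.09 to 0.90 (limma adjusted p = 0.130). Without EMM replicate 1, its highest EMM library, the difference was 0.61 and passed at a limma adjusted p of 0.0219, and over all alternatives the adjusted p ran up to 0.720. The log2 ratio of Nr3c1 to Nr3c2 was 5.60 ± 0.39 in EMM and 3.24 ± 0.39 in SOM (exact permutation p = 0.0286, adjusted 0.0317 over the 10 pairs). On the log scale the gap between groups in Nr3c1 was wider than the whole range of Nr3c2. The ratio therefore had to separate, and its p adds nothing to the fit of Nr3c1.

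Sex steroid receptors were near the floor, with 1 exception. Esr2, which encodes estrogen receptor beta, was higher in SOM, at 49.1, 37.8, 35.1 and 26.0 against 20.4, 19.9, 15.7 and 21.5 in EMM. The lowest SOM library lay above the highest EMM library (log2 difference 0.87, SE 0.23, limma adjusted p = 0.00264). Esr1, the gene of estrogen receptor alpha, was down to 8 reads over the EMM libraries and 1 read over the SOM libraries. Per unit of depth the ratio was 13.1, with a 95% counting interval from 1.76 to 581. Pgr, the progesterone receptor gene, had 1 read in all 8 libraries. A stretch upstream of the start of Esr2, from RefSeq on GRCm38.p6, is shown because Esr2 was, with Nr0b2, the receptor gene with an E-box, the letters CACGTG that bHLH factors such as CLOCK and its partner can bind, in the 250 bases before its start. Capitals mark CACGTG, which reads the same on both strands. It was found in 2 of 45 receptor gene promoters (4.44%), against 6.02% of all 32851 promoters of the same length. Here and below, a match of letters is a description and not evidence of binding.
Esr2 promoter, chr12:76177289-76177368, minus strand: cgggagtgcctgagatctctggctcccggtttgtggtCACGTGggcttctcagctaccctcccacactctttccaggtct

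Chaperones of steroid receptors were mostly higher in SOM. This held for 11 of 12 genes, 1 did not pass, and the median log2 difference was 0.33. The share higher in SOM was 91.7%, against 36.0% of all genes tested. Stip1, which hands client proteins to HSP90, was higher in SOM by 0.64 (SE 0.04). Fkbp4, a cochaperone that favours hormone binding, was higher by 0.55 (SE 0.04), and Fkbp5, a cochaperone that lowers it and a known glucocorticoid target, by 0.79 (SE 0.05). The limma adjusted p of these 3 was at most 1.04e-08. Of 13 known glucocorticoid targets, 5 were higher in each region and the other 3 did not pass (median 0.05). The share called was 76.9%, against 72.1% of all genes tested. Zbtb16, a zinc finger factor, rose from 7.23 ± 2.49 in EMM to 81.9 ± 12.04 in SOM, while Errfi1, a feedback inhibitor of the EGF receptor, and Cebpd were higher in EMM by log2 differences of -1.39 and -1.07. Fkbp5 stands on both lists.

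Ligand enzymes were split. Of 27 genes for enzymes that make or break down steroid, vitamin D and related ligands, 19 were tested. EMM was the higher region for 11 and SOM for 4, the other 4 did not pass, and the median was -0.23. The share called was 78.9%, against 72.1% of all genes tested. Ptgis, the prostacyclin synthase gene, stood at 928 ± 48.2 in EMM and 209 ± 16.5 in SOM. H6pd, which supplies cofactor to the enzyme that activates glucocorticoids, was 1.83-fold higher in EMM. The gene of that enzyme, Hsd11b1, was under the filter, with 6 reads in EMM and 47 in SOM. Hsd11b2, the gene of the enzyme that inactivates glucocorticoids, was higher in EMM, at 70.4 ± 17.4 against 36.0 ± 6.48 (limma adjusted p = 0.000735). Star, the cholesterol carrier gene of steroid synthesis, was at 98.5 ± 4.32 in SOM and 44.4 ± 4.66 in EMM, and Srd5a1, a steroid reductase gene, was higher in SOM by 0.66. Cyp19a1 (aromatase) and Sult1e1 (estrogen sulfotransferase) had no read in any library.

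The oxysterol receptor genes differed in opposite directions. Nr1h2 encodes LXR-beta, the widely expressed form, and stood at 876, 951, 939 and 898 in EMM and 1131, 1120, 1148 and 1061 in SOM. The difference was small and without overlap (log2 difference 0.28, SE 0.05, limma adjusted p = 0.000199). Nr1h3 encodes LXR-alpha, known from macrophages, liver and fat, and stood at 31.7, 41.6, 24.0 and 35.0 in EMM and 15.1, 17.5, 14.7 and 12.7 in SOM. Its mean was 2.21-fold higher in EMM, again without overlap (log2 difference -1.07, SE 0.23, limma adjusted p = 0.000584). The log2 ratio of Nr1h2 to Nr1h3 rose from 4.78 ± 0.32 in EMM to 6.13 ± 0.15 in SOM (exact permutation p = 0.0286, adjusted 0.0317 over the 10 pairs). Both genes lay apart in opposite directions, so the ratio had to separate and its p adds nothing to the fits. Macrophage markers moved with Nr1h3. All 12 were higher in EMM, none was at 0, and their summed level was 12070 to 15091 in EMM against 2955 to 3343 in SOM, and their part in the Nr1h3 difference was not tested. Nr1h4, the bile acid receptor gene, was seen in 9 reads from EMM and 1 from SOM. Per unit of depth its ratio was 14.7, with a 95% counting interval from 2.04 to 646.

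Known LXR targets were mostly higher in EMM. Of the 11 tested, which include Nr1h3 itself, 9 had more in EMM and 2 in SOM (median -0.65). The share higher in EMM was 81.8%, against 36.1% of all genes tested. Apoe, a lipid carrier that macrophages also make in quantity, stood at 9187 ± 635 in EMM against 3063 ± 196 in SOM. Lpcat3, a phospholipid remodelling enzyme gene, and Scd1, a fatty acid desaturase gene, had log2 differences of -0.65 and -0.79. The sterol transporter gene Abcg1 was 2.01-fold higher in SOM (limma adjusted p = 4.09e-06), and Abcg5 was higher in SOM by a log2 difference of 0.99 (limma adjusted p = 0.0124). Without SOM replicate 2 only 1 of these targets passed toward SOM. The macrophage values above stand beside these genes too.

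Of the PPAR genes, Ppara was higher in EMM and Ppard did not pass. Ppara, a driver of fatty acid oxidation, stood at 116, 114, 107 and 102 in EMM and 63.0, 55.3, 68.3 and 59.4 in SOM. The groups lay far apart relative to their spread (log2 difference -0.83, SE 0.13, limma adjusted p = 2.94e-05). Ppard, the broadly expressed form, stood at 898 ± 55.4 in EMM and 878 ± 70.6 in SOM, with a 95% interval of the log2 difference from -0.18 to 0.11. The log2 ratio of Ppard to Ppara was 3.02 ± 0.15 in EMM and 3.82 ± 0.02 in SOM (exact permutation p = 0.0286, adjusted 0.0317 over the 10 pairs). On the log scale the gap between groups in Ppara was wider than the whole range of Ppard. This ratio too had to separate, and its p adds nothing to the fit of Ppara. Pparg, the master regulator of fat cells, was close to the floor. Its values of 14.3, 1.81, 11.5 and 6.73 in EMM and 3.78, 8.40, 4.47 and 8.01 in SOM rested on 31 and 34 reads and overlapped fully.

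PPAR targets were higher in EMM as a list. EMM was the higher region for 11 of 13 tested, SOM for 1, and 1 did not pass (median -0.87). The share higher in EMM was 84.6%, against 36.1% of all genes tested. Cpt1a, which brings fatty acids into mitochondria, was 2.75-fold higher in EMM, at 1478 ± 97.3. Cd36, a fatty acid uptake receptor also found on macrophages and endothelium, was 7.45-fold higher, and Angptl4, a secreted lipase inhibitor, 1.83-fold. Fabp3 was the member higher in SOM, by 0.73. Of the fat cell genes on the list, Adipoq had 4 reads, all in EMM, and Cidec had none. Fabp4, also found in fat cells, was low but higher in EMM, at 18.5 ± 6.38 against 6.18 ± 4.47 (limma adjusted p = 0.0108).

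Of the RXR partners, Rxra was even between regions, at 3397 ± 43.2 and 3499 ± 250 normalized counts in EMM and SOM. Rxrb was higher in SOM by 0.34 (SE 0.06) and Rxrg by 2.60 (SE 0.27, limma adjusted p = 2.71e-07), though Rxrg was much lower in counts, at 79.7 ± 23.4 in SOM. Markers of neural crest glia moved with Rxrg. SOM was the higher region for 6 of 8 and EMM for 1, the median was 2.92, and Foxd3 was at 0 in all EMM libraries. Their summed level was 1855 to 2176 in SOM and 1130 to 1658 in EMM, and their part in the Rxrg difference was not tested. Vdr, the vitamin D receptor gene, stood at 21.5, 25.3, 17.8 and 14.8 in EMM and 18.9, 16.1, 19.8 and 16.03 in SOM. Its log2 difference of -0.14 had a 95% interval from -0.65 to 0.38, and a smaller difference was not detectable at this depth.

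Of the circadian receptor genes, Nr1d1 was slightly higher in SOM and Rora was higher in EMM. Nr1d1 encodes REV-ERB-alpha, a repressor of the clock gene Arntl, and stood at 419, 408, 345 and 369 in EMM and 468, 461, 497 and 422 in SOM. The lowest SOM library exceeded the highest EMM library by less than 1 SD of either group (log2 difference 0.26, SE 0.08, limma adjusted p = 0.00824). Nr1d1 shares 263 exonic bases with Thra on the other strand, and reads there cannot be assigned. Thra stood far above Nr1d1, at 3271 ± 218 in EMM and 3022 ± 238 in SOM. Its paralog Nr1d2 stood at 158 ± 19.3 in EMM and 146 ± 11.1 in SOM and did not pass (limma adjusted p = 0.422). That the paralogs changed differently was not shown, since the exact permutation p for their ratio was 0.0857. Rora encodes an activator that competes with REV-ERBs for the same sites. It was higher in EMM, at 54.2, 43.4, 40.8 and 45.8 against 10.1, 33.6, 19.8 and 30.1 in SOM, without overlap but with a wide SOM spread (log2 difference -1.07, SE 0.30, limma adjusted p = 0.00540). Rorb was near the floor, with 7 EMM reads and 15 SOM reads.

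A stretch upstream of the start of Nr1d2 is shown because REV-ERB and ROR proteins bind the core motif AGGTCA, searched on both strands, which capitals mark. Of the 32 receptor genes with a promoter in the table, 6 had this motif in the 250 bases before a start, among them Nr1d2, and 7 of their 45 promoters (15.6%) held it against 14.0% of all promoters. The match in Nr1d2 begins 77 bases before the start.
Nr1d2 promoter, chr14:18239141-18239220, minus strand: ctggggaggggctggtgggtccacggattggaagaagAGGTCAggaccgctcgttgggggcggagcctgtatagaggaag

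The wider clock list moved both ways. It has 18 genes and includes Nr1d1, Nr1d2 and Rora. EMM was the higher region for 7 and SOM for 5, the other 6 did not pass, and the median was -0.10. The share called was 66.7%, against 72.1% of all genes tested. Arntl, the partner of CLOCK, was higher in EMM by a log2 difference of -0.50, as was Hlf, at 655 ± 107 against 302 ± 32.3. Dbp, an output gene of the clock, was higher in SOM, at 147 ± 12.96 against 84.9 ± 13.4. No source used here gives the hour of dissection.

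The estrogen-related receptor genes went in 3 directions. They encode orphan receptors that drive mitochondrial genes together with the coactivator PGC-1-alpha. Esrra was the most abundant, at 307 ± 20.2 in EMM and 276 ± 34.9 in SOM, and did not pass (log2 difference -0.16, 95% interval from -0.37 to 0.05). Esrra shares 164 exonic bases with other genes, among them Trmt112 on the other strand, and reads there cannot be assigned. Trmt112 stood at 1028 ± 73.2 in EMM and 1489 ± 122 in SOM and was called higher in SOM (0.53). Esrrg was higher in EMM, at 51.1, 36.1, 41.8 and 57.9 against 20.1, 11.9, 7.02 and 18.7 in SOM. The groups did not overlap (log2 difference -1.71, SE 0.29, limma adjusted p = 6.37e-05). Esrrb was higher in SOM, at 26.4, 19.6, 18.5 and 25.4 against 4.09, 18.1, 1.05 and 9.42 in EMM. It passed the filter through its SOM libraries, since in EMM only replicate 2 reached 10 normalized counts. The EMM values rested on 22 reads, with 1 read in replicate 3, and the mean was 2.76-fold higher in SOM. The EMM libraries were widely spread, and EMM replicate 2 almost reached the lowest SOM library (log2 difference 1.78, SE 0.57, limma adjusted p = 0.0152). Without EMM replicate 1 the call was lost, at a limma adjusted p of 0.0511, and over its alternatives p ran from 0.000514 to that value.

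The ratio of Esrrb to Esrrg differed between regions, with a log2 ratio of -2.80 ± 1.45 in EMM and 0.69 ± 0.42 in SOM. The ratio of Esrra to Esrrg also differed, at 2.71 ± 0.39 and 4.25 ± 0.72 (exact permutation p = 0.0286 and adjusted 0.0317 over the 10 pairs for each). Since Esrrb and Esrrg lay apart in opposite directions, their ratio had to separate, and its p adds nothing to the fits. On the log scale the gap between groups in Esrrg was also wider than the whole range of Esrra. The p of the Esrra to Esrrg ratio therefore adds nothing to the fit of Esrrg. Ppargc1a, which encodes PGC-1-alpha, was 4.23-fold higher in EMM, at 245 ± 27.1 against 57.9 ± 7.49 (log2 difference -2.07, SE 0.13, limma adjusted p = 7.86e-10).

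The testicular receptor genes split, with Nr2c2 higher in EMM and Nr2c1 not passing. Nr2c2, which encodes the orphan receptor TR4, stood at 798, 712, 762 and 734 in EMM and 412, 538, 373 and 580 in SOM. The groups did not overlap (log2 difference -0.68, SE 0.13, limma adjusted p = 0.000521). Its merged exons of 14935 bases share 4657 with genes on the other strand, among them Mrps25, which was higher in SOM (0.51). Nr2c1, which encodes TR2, stood at 499 ± 45.9 in EMM and 522 ± 43.2 in SOM. The log2 ratio of Nr2c1 to Nr2c2 was -0.59 ± 0.16 in EMM and 0.15 ± 0.25 in SOM (exact permutation p = 0.0286, adjusted 0.0317 over the 10 pairs). Nr6a1, the germ cell nuclear factor gene, known for silencing pluripotency genes in the early embryo, was higher in EMM at 83.8, 118, 108 and 90.2 against 60.4, 69.3, 65.7 and 86.1. SOM replicate 4 lay within the EMM range (log2 difference -0.50, SE 0.15, limma adjusted p = 0.00854).

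Nr2e1 was seen chiefly in EMM and varied there. It encodes TLX, an orphan repressor of neural stem cells in forebrain and retina. It had 28, 16, 12 and 7 reads in EMM replicates 1 to 4 and 1, 1, 5 and 2 reads in SOM replicates 1 to 4. In normalized counts these were 28.6, 28.9, 12.55 and 9.42 in EMM and at most 3.19 in SOM, so that EMM replicates 1 and 2 stood above the rest. It was under the filter, and with no filter on low values its log2 difference was -2.93 (limma adjusted p = 2.88e-05), where 57.6% of all genes were called. Some brain markers also stood higher in these libraries. Of 15 brain and neuron markers, 9 were higher in both EMM replicates 1 and 2 than in every other library. The whole list had no marker at 0, and of 8 tested 4 were higher in SOM and 3 in EMM. Its sum ran the other way, from 988 to 1628 in EMM and from 3385 to 3791 in SOM, and its part in the Nr2e1 difference was not tested. Nr2e3, a photoreceptor gene, had 2 reads in all.

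**Figure D3:**
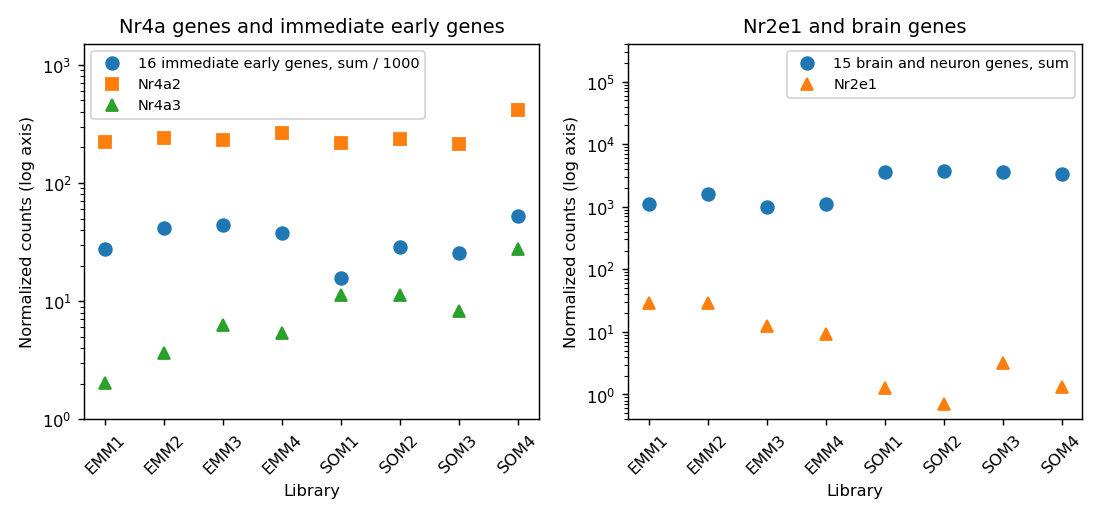
Normalized counts on a log axis in each of the 8 libraries. Left, Nr4a2, Nr4a3 and the sum of 16 immediate early genes divided by 1000, with SOM4 highest in all 3. Right, Nr2e1 and the sum of 15 brain and neuron markers, with EMM1 and EMM2 highest for Nr2e1 and the SOM libraries highest for the sum.

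For Nr4a2 a single library stood out, whereas Nr4a3 was higher in all SOM libraries than in any EMM library. These genes encode orphan receptors that are immediate early genes in many cells, and Nr4a2 (NURR1) is known for dopamine neurons. Nr4a2 stood at 224, 242, 231 and 267 in EMM and 219, 236, 213 and 413 in SOM, with SOM replicate 4 far above the rest (limma adjusted p = 0.622). Without that library the log2 difference turned from 0.11 to -0.11. Nr4a3 (NOR1) was lower, at 2.04, 3.61, 6.27 and 5.39 in EMM and 11.3, 11.2, 8.30 and 27.4 in SOM. With no filter on low values the log2 difference was 1.48 (limma adjusted p = 0.00516). SOM replicate 4 was also the highest SOM library for all 16 other immediate early genes and the highest of all libraries for 11 of them. EMM replicate 1, where Nr4a3 was lowest, was the lowest EMM library for 15 of them. SOM replicate 1 was the lowest SOM library for 15 of them, but Nr4a3 did not follow there. It was at 11.3 in that library and lowest in SOM replicate 3, at 8.30. Of the 17 tested genes on that list, which holds Nr4a2, 3 had more in EMM, 1 had more in SOM, and 13 did not pass.

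The promoters of Nr4a3 and Nr2e1 are shown because, with Nr2c1, they were the receptor genes with the letters TGACGT, searched on both strands, in the 250 bases before a start. This is the core of the cyclic AMP response element, which CREB proteins bind in many immediate early genes. It was found in 6.47% of all promoters and in 3 of 45 receptor gene promoters (6.67%). Nr4a3 holds it 3 times in that window, of which the stretch shows 2, and in Nr2e1 the matches on both strands overlap in TGACGTCA. Capitals mark the matches.
Nr4a3 promoter, chr4:48045055-48045134, plus strand: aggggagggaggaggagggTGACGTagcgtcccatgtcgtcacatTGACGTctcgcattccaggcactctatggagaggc
Nr2e1 promoter, chr10:42583673-42583752, minus strand: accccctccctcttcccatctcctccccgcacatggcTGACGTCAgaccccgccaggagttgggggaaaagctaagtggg

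The remaining members are known from gonad, adrenal, liver and early embryo, and most were near the floor. Nr5a2 (LRH-1) stood at 19.4, 19.9, 24.0 and 18.8 in EMM and 11.3, 32.2, 21.7 and 31.4 in SOM, and the groups overlapped (limma adjusted p = 0.708). Its log2 difference of 0.13 had a wide 95% interval, from -0.49 to 0.75. Nr5a1 (SF-1), the gonad and adrenal factor, had 7 reads in EMM and 18 in SOM. Nr0b1 (DAX1) had 5 reads, all in EMM replicate 3, against 1 in SOM. Nr0b2 (SHP), which lacks a DNA-binding domain, had 1 and 6 reads. Hnf4a, the liver and gut factor, had 1 read in each region. For these genes 3 reads, taken as the floor, came to between 1.91 and 5.42 normalized counts in a library. With no filter, none of Nr5a1, Nr0b1, Nr0b2 and Hnf4a passed, with limma adjusted p from 0.277 to 0.890.

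**Figure D4:**
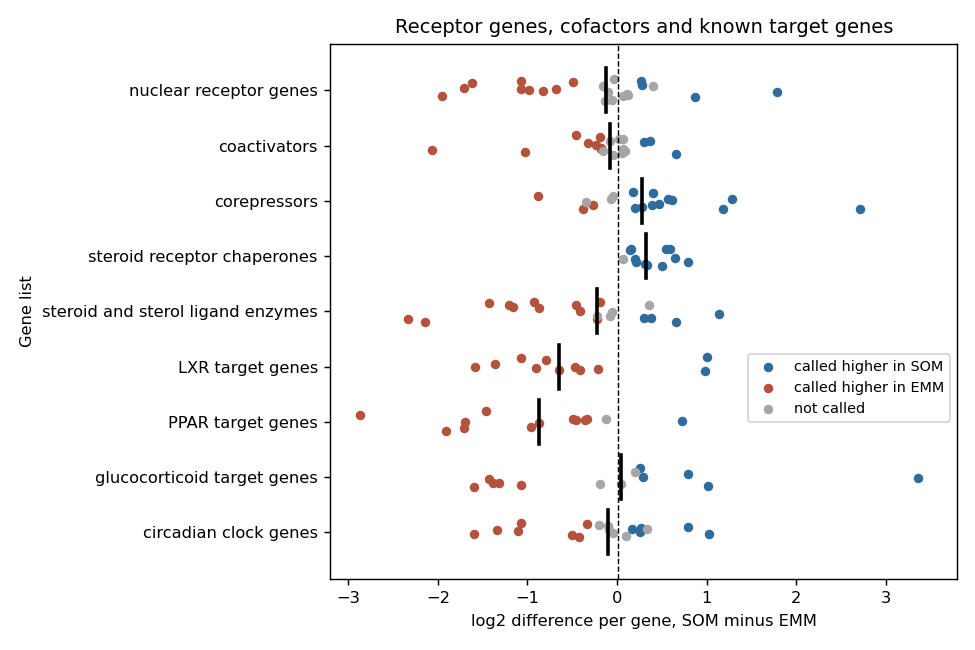
The log2 difference between regions (SOM minus EMM) for each tested gene of 9 lists, coloured by the limma call, with list medians as black bars and the median of all genes as a dashed line. Corepressor and chaperone medians lie toward SOM, at 0.28 and 0.33, and LXR and PPAR target medians toward EMM, at -0.65 and -0.87.

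The cofactor lists are given beside the background, in which 36.1% of all genes were higher in EMM and 36.0% in SOM, and a difference between the lists was not tested. Coactivators, which open chromatin when a ligand is bound, had 8 of 19 genes higher in EMM and 3 in SOM, with 8 that did not pass and a median of -0.08, so that 57.9% were called against 72.1% of all genes. Ppargc1a and Ncoa4, which is also the ferritin receptor of autophagy, had the lowest adjusted p toward EMM, with Ncoa4 2.06-fold higher. Med24 and Ncoa5 were higher in SOM by 0.66 and 0.37. Corepressors, which close chromatin in the absence of ligand, had 11 of 17 genes higher in SOM and 3 in EMM, with 3 that did not pass and a median of 0.28. Bcl11a, whose protein binds COUP-TFs, stood at 1525 ± 119 in SOM and 625 ± 16.4 in EMM. Rcor2 was 2.27-fold and Gps2, a subunit of the NCoR complex, 1.48-fold higher in SOM. Toward EMM, Rcor1 and Tbl1x had log2 differences of -0.38 and -0.27. Nrip1, a corepressor that binds many liganded receptors, was also higher in EMM, at 561 ± 89.4 against 310 ± 86.8 (log2 difference -0.88, limma adjusted p = 0.00535).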

How the data were processed

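RNA of 8 pools was sequenced. Per the submitters' processing notes the tools were STAR, bcl2fastq and DESeq2 (no version is recorded), with the build mm10. No source used here names the read counter, the annotation or strand use. The deposited library columns hold a signal, normalized counts, in which each library's reads were scaled by 1 factor, per the file headers and the values. The authors also deposited a log2 fold change, its standard error and Wald score, and p-values and adjusted p-values. Dividing by the smallest nonzero value of a library gave whole numbers for 100% of its values (within 1 ppm), which were taken as reads.

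The tested genes reached 10 normalized counts in 4 or more libraries. They were fitted with limma 3.58.1 in R 4.3.3 on log2(normalized count + 1), with a trend, robust estimates and no covariate, over all 8 libraries. The added 1 makes differences of low genes smaller. A difference of mean logs can also exceed the log2 of the fold of means, as it did for Esrrb. A gene was called at an adjusted p-value (Benjamini-Hochberg) under 0.05. The fit was tested on simulated data. Libraries of a group differed beyond counting noise (chi-square per degree of freedom 3.64 to 18.9). Intervals of fitted differences are limma's. Floors (3 reads) and counting intervals (95%, exact binomial) cover counting error only. Alternatives used edgeR 4.0.16, DESeq2 1.42.0 and limma-voom on recovered reads, other filters, pseudocounts and scaling, the replicate block, and libraries left out. Symbols and exon lengths follow GENCODE M21 on GRCm38, the assembly that mm10 names. Promoters are RefSeq's on GRCm38.p6. Nr3c1 and Nr5a1 have no promoter sequence printed or searched.

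The members and lists were chosen with earlier results of these data known. All members are reported. From the other lists the text takes named genes from the 3 of lowest adjusted p among those called in each direction, though not always all 3, the RXR genes, and genes without reads. Ciart, Adgre1 and Snorc were matched by older symbols. Genes that overlap a member were named from the annotation. Adipoq, Fabp4, Hsd11b1, Hsd11b2, Col1a1, Col1a2, Col3a1 and Krt5 were named after their values were seen. Sts had no match and was not analysed here. Values of 1 marker gene are not reported here.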

Additional observations from a re-analysis of the deposited data

Results flagged for a closer look

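In 4 cases the highest or lowest library of a group stood far from the others. SOM replicate 4 was far above the other SOM libraries for Nr4a2, at 412.7 normalized counts, and for Nr4a3, at 27.4. EMM replicate 4 was far below the other EMM libraries for Nr2f2, at 2517.7, and still above every SOM library. EMM replicate 1 was far above the other EMM libraries for Nr3c1, at 1816.2. In all, 48 groups with a mean of at least 5 normalized counts were examined, and chance alone flags about 1 in 20 groups.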

How the results depend on the processing

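Across 18 alternatives, 12 of the 13 called receptor genes kept their direction and call wherever they were tested. The exception was Esrrb, described above. With a filter at 50 normalized counts, 14 receptor genes were tested, with 2 higher in SOM in place of 4, since Esr2 and Esrrb were no longer tested. No paired design is stated. The replicate block gave 9 receptor genes higher in EMM and 4 in SOM, as without it, and correlations of same-numbered libraries' deviations ran from -0.02 to 0.13. Genes that did not pass changed sign near 0. Nr2c1 was at -0.0013 without EMM replicate 3. Without SOM replicate 4, Nr4a2 was at -0.11 (0.21 at most with 1 library left out) and Nr5a2 at -0.029 (between -0.041 without SOM replicate 2 and 0.43 without SOM replicate 1). Ppard was at 0.0035 without EMM replicate 3 and ran from -0.078 to 0.015 when SOM libraries were left out. With EMM replicates 2 and 3 and SOM replicate 4 all left out, Nr2c1 was at -0.0099, Nr2f6 at 0.018, Nr4a2 at -0.14, Ppard at 0.019 and Vdr at 0.026, and the counts were 9 in EMM and 5 in SOM. Without filter, 12 were higher in EMM and 5 in SOM. In list counts, LXR targets higher in SOM fell to 1 with the filter at 50, without SOM replicate 2 or without those 3 libraries, where clock genes higher in SOM fell to 3. Immediate early genes higher in SOM were 2 in 8 alternatives, and those higher in EMM were 5 without SOM replicate 4. The authors' deposited table called 16 receptor genes, the same 13 with Nr1h4, Nr2e1 and Nr4a3.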
